A study of Microtus ochrogaster with 40 samples.

Results

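Oligodendrocyte precursors of the nucleus accumbens were chosen nucleus by nucleus from raw counts of unique molecular identifiers (UMIs), each of which stands for 1 captured RNA molecule. A nucleus was a member when it held at least 500 UMIs, at most 5% of them from 13 mitochondrial genes, at least 1 UMI each of Pdgfra and Cspg4, and none of Mog, Gja1, Slc17a7, DRD1A and DRD2, which mark mature oligodendrocytes, astrocytes, cortical-type glutamate neurons and spiny neurons. Of 185995 nuclei in 40 prairie voles, 3519 were members (1.89%). Since Pdgfra, Cspg4 and the 5 genes at 0 chose the members, their levels are given below as a description only. Levels set against other nuclei carry no test either, because those nuclei were chosen by the same kind of rule.

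Oligodendrocyte precursors are glial cells that go on dividing in the adult brain and give rise to the cells that make myelin. Platelet-derived growth factor, read by the receptor that Pdgfra encodes, keeps them dividing, and Cspg4 encodes NG2, the proteoglycan on their surface by which they are often named. They receive synaptic contacts from neurons and carry receptors for glutamate and GABA, and those that leave the cell cycle pass through a stage marked by the receptor Gpr17 before they switch on myelin genes.

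Nuclear RNA was measured with the 10x Genomics droplet method in the dissected nucleus accumbens of 40 prairie voles, a rodent in which partners form lasting bonds. Each library held nuclei of 1 animal, which had lived for 16 days with a new partner of the opposite sex (mate) or of the same sex (peer). Of the females, 11 had a mate and 8 a peer, and of the males 11 had a mate and 10 a peer. Partners are not named in the labels, so animals that lived together could not be matched and may not be independent. Strain and age are not given in the sources used here, and no animal is labelled as carrying a transgene or other treatment.

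A library held between 1793 and 8204 nuclei and between 3002288 and 14907749 UMIs in them. The library of male mate 2 stood apart. It had the most barcodes, 12519, of which 6375 lay below 500 UMIs, while no other library held a barcode below 500. Its median of 662 UMIs per nucleus was the lowest, with 935 to 2201 in the other 39, and only 3 of its 6112 nuclei were precursors. It is therefore in the shares below, with values also given without it, and in no level per animal, which needed at least 20 precursors. Barcode sequences found in more than 1 library made up 22.3% of all nuclei and 22.6% of precursors, and 6 barcodes were precursors in more than 1 library. Of the precursors 92 (2.61%) were called doublets, against 4.09% of all nuclei, and were kept in the main values.

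Precursors were shallow, with a median of 842 UMIs and 721 genes per nucleus. The median over all nuclei was 1555 UMIs. Nuclei gated as mature oligodendrocytes (Mog and Mag, 8491 nuclei) had a median of 704 UMIs, those gated as astrocytes (Gja1 and Slc1a3, 18136 nuclei) 778.5, and those gated as spiny neurons (DRD1A or DRD2, 52724 nuclei) 2095. Less than 100 UMIs above the lower limit lay 320 precursors (9.09%), so the number of members depends on where that limit was set. Together the members held 3294052 UMIs.

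Pdgfra was found in 6646 nuclei and Cspg4 in 5962, and 4245 held both. Of these 726 were left out for a UMI of the excluded genes, most often Slc17a7 (362 nuclei), DRD1A (192) and Gja1 (189). Doublets were called in 36.1% of the nuclei left out. At the edge of the rule, 186 members had just 1 UMI of each gene, and 1306 nuclei with Pdgfra alone and 533 with Cspg4 alone lay outside it.

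C1ql1 and Matn4, which the rule did not use, bore on the label. C1ql1 encodes a secreted protein of the C1q family, and Matn4 a matrix protein of the matrilin family. C1ql1 was detected in 72.8% of precursors (exact 95% interval 71.3 to 74.2%, counting error only), against 0.930% of mature oligodendrocytes, 1.33% of astrocytes and 0.277% of spiny neurons (medians 842, 704, 778.5 and 2095 UMIs). Matn4 was detected in 29.3% of precursors and, in the same order, 0.188, 0.0386 and 0.0474% of the other classes, and 79.9% of precursors held either gene. Summed over nuclei, C1ql1 stood at 1630 counts per 1000000 UMIs (CPM) in all members and at 1039 in the members with 1 UMI of each rule gene. Those members carried more RNA of genes that mark other cells. Gad1 was at 405 CPM against 110 in all members, Snap25 at 997 against 609 and Flt1 at 121 against 17.9. Just outside the rule C1ql1 stood at 886.5 in nuclei with Pdgfra alone, and at 304.1 in those with Cspg4 alone. The nuclei with Cspg4 alone instead carried Vtn at 1300 CPM and Flt1 at 1590 CPM, genes of pericytes and endothelial cells, which stood at 9.71 and 17.9 CPM in the members. The markers thus went with the label inside the rule and much less so in nuclei that held only Cspg4.

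Precursors made up a similar share of the nuclei in the 4 groups. The lowest, median and highest shares were 1.36, 1.95 and 2.82% in female mates and 1.27, 1.92 and 2.46% in female peers. In male mates they were 0.0491, 1.84 and 2.38%, the lowest being male mate 2, and in male peers 1.27, 1.90 and 2.51%. The ranges overlapped in all 4 groups. In the same order the means and SDs were 2.04% ± 0.415 over 11 animals, 1.88% ± 0.414 over 8, 1.70% ± 0.622 over 11 and 1.92% ± 0.387 over 10.

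**Figure D1:**
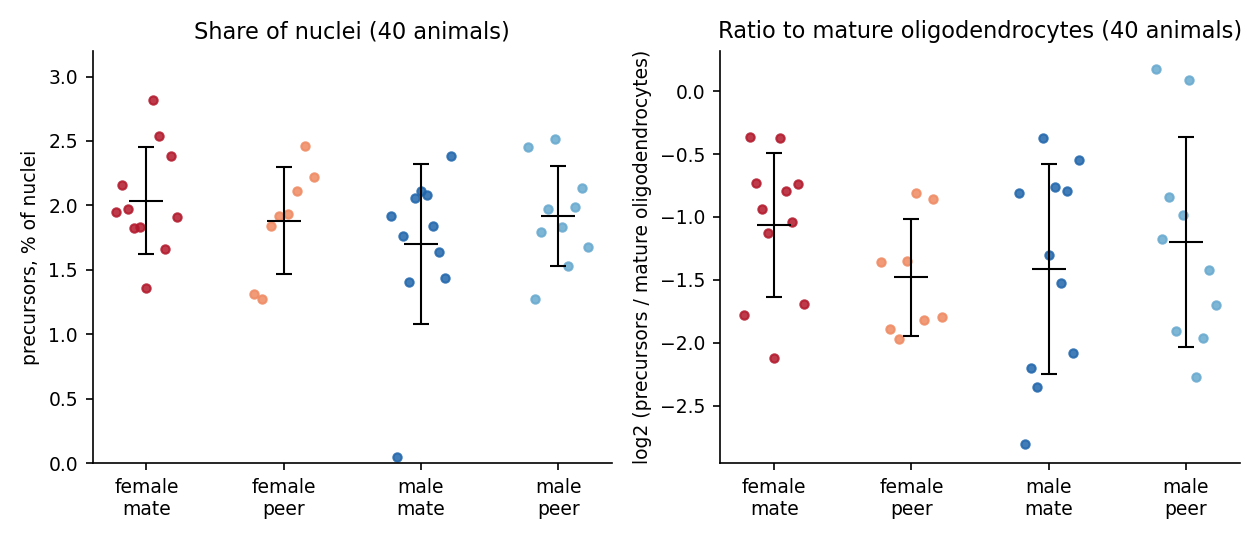
Share of precursors among the nuclei of each animal (left, percent) and log2 ratio of precursors to mature oligodendrocytes (right), by group. Points are animals, the bar is the mean and the whiskers 1 SD. The lowest share, 0.0491%, is male mate 2, and the other 39 animals lie between 1.27 and 2.82%.

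Neither pairing nor sex went with a difference in the number of precursors that passed a test. Mates minus peers, averaged over the sexes, differed by -0.0318 percentage points (two-sided permutation test, adjusted p = 0.899, 40 animals), and by 0.0507 without male mate 2. Females minus males differed by 0.152 points (permutation, adjusted p = 0.711), and by 0.0698 without male mate 2. For each precursor there were more mature oligodendrocytes, with a mean log2 ratio of -1.28 ± 0.699 (SD, n = 40). This ratio spanned -2.81 to 0.17, and only in male peers did it reach above 0. Mates and peers differed in it by 0.10 (permutation, adjusted p = 0.899), females and males by 0.03 (permutation, adjusted p = 0.899), and without male mate 2 by 0.17 and -0.03. The pairing difference in the share was 0.373 points larger in females than in males and in the log2 ratio 0.63 larger, with an adjusted p of 0.657 in both (permutation). Without male mate 2 these were 0.208 points and 0.49. P-values were adjusted over 9 tests of 3 measures. A difference that misses the threshold here is not shown to be absent, since SDs within groups were 0.387 to 0.622 points, that of male mates being 0.311 without male mate 2.

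The relation of the precursor share to library depth rested on few animals. Over 40 animals, the share and the median UMIs per nucleus had a Pearson r of 0.461 (permutation p = 0.00675, adjusted 0.0135) and a Spearman rho of 0.141 (permutation p = 0.385, adjusted 0.77). Leaving out the 2 animals farthest from the median depth gave r = 0.0137, and leaving out male mate 2 alone gave r = 0.153 (permutation p = 0.354). Shares of precursors and of mature oligodendrocytes had r = 0.129 (permutation p = 0.434, adjusted 0.434) and rho = 0.0323 (permutation p = 0.843, adjusted 0.843), and r = -0.121 without the 2 farthest animals.

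Levels below are means over 39 animals, each being a gene's CPM in the summed precursors of that animal. They are not corrected for gene length, so levels of different genes are not ranked against each other. Values in mature oligodendrocytes, astrocytes and spiny neurons of the same animals, in this order, serve as the comparison. Among all 14642 genes with a UMI in these precursors, 28.6% had their highest mean of the 4 classes in precursors.

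Of the 25 genes with the largest mean log2 ratio to all other nuclei of the same animal, 21 carry a symbol. All 25 were above those nuclei in 39 of 39 animals. This count follows from the choice, which used the same ratio in the same animals, and Pdgfra and Cspg4 were required by the rule. They include the 4 markers, Gpr17, Olig1, Olig2 and Calcrl, and Cav1, the coat protein of caveolae, at 1213 ± 283 CPM (SD, n = 39), against 97.5, 7.04 and 1.62 in the 3 other classes. Kank1, an adaptor between cell adhesions and the cytoskeleton, was at 1275 ± 228 CPM, against 71.8, 46.9 and 2.44. Tmem255b, a membrane protein gene, was at 666 ± 176 CPM, against 2.05 CPM in mature oligodendrocytes and less in the others. Several leading genes encode matrix proteins. Col9a3 and Col9a2, chains of collagen IX, ranged over animals from 282 to 1112 and from 55.8 to 401 CPM, and Svep1, another matrix protein, was at 237 ± 86.2 CPM.

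Other leading genes act outside the cell or on sugars. Bmp7, a bone morphogenetic protein, was at 265 ± 73.5 CPM, against 0.548 in mature oligodendrocytes and 25.5 in astrocytes. B3gnt7, a sugar-adding enzyme, and Neu4, a sialidase, were at 248 ± 89.9 and 208 ± 57.0 CPM and below 1 CPM in each of the 3 other classes. Susd5, Tmem100 and Sapcd2 were also among the 25, at 299, 284 and 246 CPM. The glycoprotein gene Gpnmb ranged from 40.1 to 449 CPM over animals and had 699 UMIs in precursors, 0 in mature oligodendrocytes and 2 in astrocytes, with 66.7% of all its UMIs in precursors. For Pdgfra and Cspg4, which the rule used, these shares were 64.8 and 68.0%. Of the 4 leading genes known by identifier only, ENSMOCG00000000187 stood at 3744 ± 538 CPM and ENSMOCG00000002631 at 834 ± 172 CPM.

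**Figure D2:**
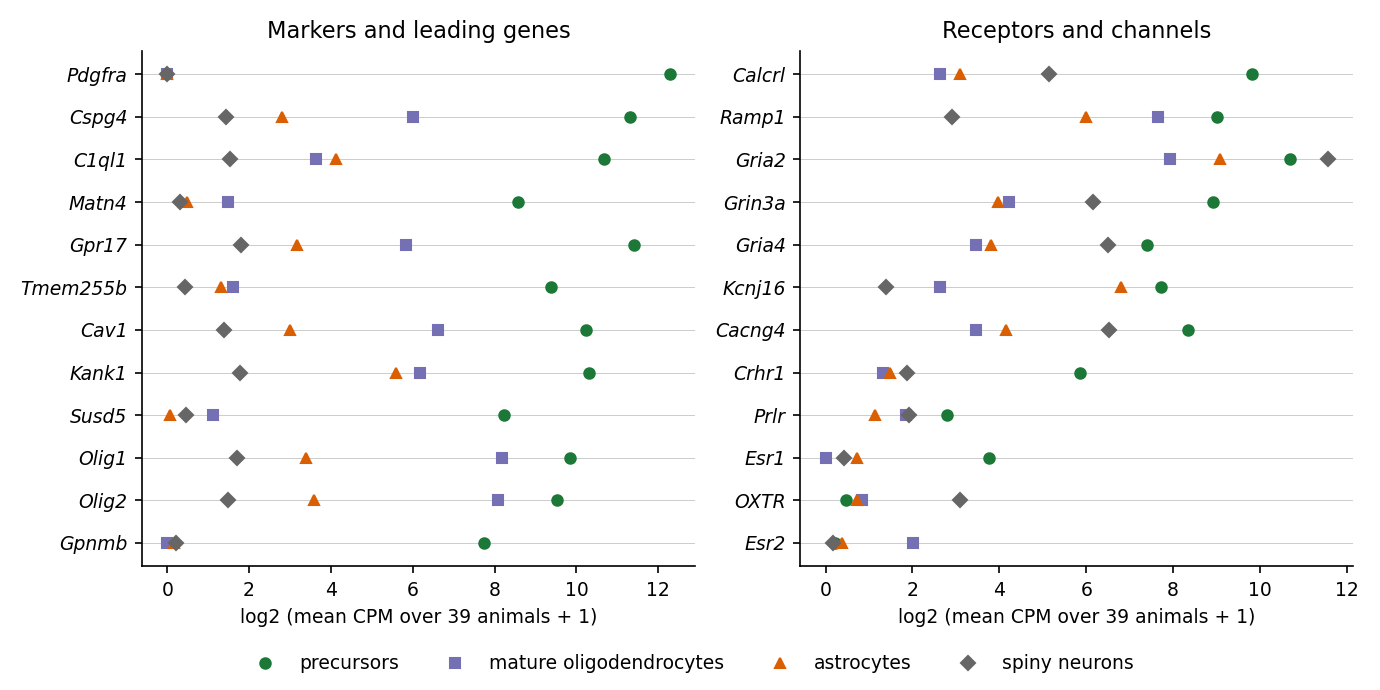
Mean level of selected genes in precursors, mature oligodendrocytes, astrocytes and spiny neurons, as log2 of the mean CPM over 39 animals plus 1. The comparison classes hold no Pdgfra by their own rule. Precursors lie to the right of the other classes for each gene on the left, and to the left of spiny neurons for Gria2 and OXTR on the right.

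Among 21 transcription factors of the lineage, 14 had their highest mean of the 4 classes in precursors, and the list had a median log2 ratio to all other nuclei of 1.76, against -0.21 over all genes. Olig1 and Olig2, which specify the lineage, were at 914 ± 208 and 730 ± 170.0 CPM, and at 287 and 269 CPM in mature oligodendrocytes. Sox10, needed for the lineage at all stages, did not separate the stages. It was at 513 ± 110 CPM in precursors and 495 CPM in mature oligodendrocytes and was higher in precursors in 19 of 39 animals. Sox6, which acts in progenitors, was at 157 ± 53.5 CPM, above all 3 other classes in each of the 39 animals. Zeb1 was at 362 ± 93.1 CPM and at 8.71 CPM in mature oligodendrocytes. Hes5, a target of Notch signalling, was higher in astrocytes (444 CPM) than in precursors (220.5 ± 89.1 CPM) in all but 3 animals. Nkx6-1 rested on 1 UMI.

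Most proteoglycan and matrix genes used had their highest mean in precursors. They were 15 of 19, Cspg4, which the rule required, included, with a median log2 ratio of 3.09. Ptprz1, a receptor phosphatase that carries chondroitin sulfate, was at 4339 ± 776 CPM, against 26.6 in mature oligodendrocytes, 880.5 in astrocytes and 105 in spiny neurons. Sparcl1, a secreted matrix protein, was at 5442 ± 1425 CPM and was above astrocytes, at 4196 CPM, in 34 of 39 animals. Xylt1, the enzyme that starts chondroitin sulfate chains, was at 1333 ± 175 CPM. The neural proteoglycans Cspg5 and Ncan were at 1302 ± 331 and 1049 ± 202 CPM, and Tnr, a tenascin of nets around neurons, at 915 ± 248 CPM. Hapln1, which links proteoglycans to hyaluronan, was at 297.5 ± 102 CPM, against 105 CPM in astrocytes.

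Genes of adhesion and synapse contact were high as well. Of 27 used, 18 had their highest mean in precursors. Lhfpl3 was at 2397 ± 343.5 CPM against 255 in spiny neurons, the highest of the other classes. The neural adhesion gene Cntn1 was at 1866 ± 434 CPM, against 437 CPM in spiny neurons, and Csmd3 at 1156 ± 184 CPM, against 716. Nlgn3, a neuroligin at synapses, was at 736 ± 152.5 CPM against 310.0 in spiny neurons, with precursors higher in 39 of 39 animals. Megf11 and Pcdh15 were at 438 ± 87.2 and 379 ± 101 CPM and below 10 CPM in the 3 other classes. The gene for neurexin 1 was not used here.

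Receptors for growth factors differed in how far precursors shared them with other glia. Of 29 receptor, ligand and feedback genes used, 10 had their highest mean in precursors. They were the receptors Pdgfra, which the rule required, Fgfr1, Ptch1 and Tgfbr1, and also Spry1, Spry2, Spry4, Etv4, Nrg1 and Nrg3. Ptch1, a receptor for hedgehog ligands, and Fgfr1 were at 334 ± 78.0 and 194 ± 61.1 CPM and above astrocytes in 34 and 38 of 39 animals. Notch1, the neurotrophin receptor Ntrk2 and the endothelin receptor Ednrb were at 403.5 ± 88.5, 386 ± 102 and 385 ± 151 CPM, with 485, 422 and 399 CPM in astrocytes. Fgfr2 and Erbb3 went the other way. They were at 4.31 and 14.6 CPM in precursors and at 301.5 and 313 CPM in mature oligodendrocytes, lower in precursors in 39 of 39 animals. Spry4, a feedback inhibitor of receptor tyrosine kinases, was at 63.5 ± 36.6 CPM and above mature oligodendrocytes in 38 of 39 animals. Etv4 and Etv5, transcription factors downstream of such receptors, were at 73.8 ± 36.6 and 97.1 ± 37.5 CPM, and at 0.528 and 17.5 CPM in mature oligodendrocytes. Ccnd1, the cyclin that growth factors induce, was at 188.5 ± 68.1 CPM and below 2 CPM in each of the 3 other classes.

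Glutamate receptor genes were mixed in their order over the classes. Of 21 used, 18 exceeded mature oligodendrocytes, 15 astrocytes and 9 spiny neurons, and 8 had their highest mean in precursors. Gria2, the AMPA receptor subunit that limits calcium entry, was at 1644 ± 194 CPM, above both glial classes (242 and 543 CPM) and below spiny neurons (3038 CPM) in 39 of 39 animals. Grin3a, an NMDA receptor subunit, was at 483.5 ± 85.8 CPM, against 17.8, 14.7 and 70.5 in the 3 other classes. Gria4 was at 169 ± 52.1 CPM, above spiny neurons (89.1 CPM) in 38 of 39 animals. The kainate receptor gene Grik1 was at 56.3 ± 29.6 CPM and below 4 CPM elsewhere. Grin1, the subunit all NMDA receptors need, was at 244 ± 72.7 CPM against 1826 CPM in spiny neurons.

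GABA receptor genes were mostly lower than in neurons. Of 12 used, 2 (Gabra3 and Gabbr2) had their highest mean in precursors. Gabrb1 was at 108 ± 46.8 CPM, against 764 CPM in astrocytes. Of 28 ion channel genes used, 5 had their highest mean in precursors. They include Cacng4, an auxiliary subunit of AMPA receptors, at 323.5 ± 66.6 CPM against 91.2 in spiny neurons, and Kcnj16, an inward rectifier, at 210 ± 66.8 CPM against 111 in astrocytes. Kcnj10, the glial inward rectifier, was at 445 ± 94.3 CPM and higher in mature oligodendrocytes, at 647 CPM.

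Of hormone and neuromodulator receptors, 33 were used and 5 had their highest mean in precursors (Esr1, Rara, Crhr1, Prlr and Adra1b). Crhr1, a receptor for corticotropin-releasing hormone, had 193 UMIs in precursors and was detected in all 40 animals. It was at 57.3 ± 34.5 CPM, with a range of 13.7 to 174, against 1.51, 1.80 and 2.64 CPM in the 3 other classes. Esr1, the estrogen receptor alpha gene, was low. Its 40 UMIs came from 26 animals and made 12.1 CPM over all precursors (exact Poisson 95% interval 8.68 to 16.5). Esr1 was at 0 of 7349286 UMIs in mature oligodendrocytes, which allows up to 0.408 CPM at 3 UMIs (exact Poisson upper bound 0.502), at 0.492 CPM in astrocytes and at 0.36 CPM in spiny neurons. Summed over the animals of each group, Esr1 stood at 17.8 CPM in female mates (10.5 to 28.1) and 9.01 in female peers (3.31 to 19.6). In males it stood at 8.53 CPM in mates (3.43 to 17.6) and 11.3 in peers (5.18 to 21.5). In this order the values rest on 18, 6, 7 and 9 UMIs from 8, 5, 5 and 8 animals. The intervals cover counting error only and not the spread between animals, so they do not compare the groups. OXTR, the oxytocin receptor gene, was counted once in precursors (0.304 CPM, interval 0.00769 to 1.69), against 7.94 CPM in spiny neurons. Genes for the vasopressin receptor 1a, the androgen receptor and the glucocorticoid receptor were not used here.

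Both parts of the receptor for calcitonin gene-related peptide were present. Calcrl, the receptor, was at 900.3 ± 215 CPM (522.5 to 1259), against 5.25, 7.51 and 34.1 in the 3 other classes, with precursors higher in 39 of 39 animals. Ramp1, the partner protein that gives the receptor its preference for this peptide, was at 515 ± 167 CPM, against 63.0 CPM in astrocytes and 6.55 CPM in spiny neurons, and was above mature oligodendrocytes in 38 of 39 animals. Ramp2 was at 80.4 ± 30.6 CPM, near the 70.5 and 75.3 CPM of mature oligodendrocytes and astrocytes, and Ramp3 had 4 UMIs in all.

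Precursors carried the genes of early differentiation but not those of myelin. Gpr17, a receptor of committed precursors, was at 2706 ± 624 CPM (1420 to 4177), against 55.8, 7.99 and 2.47 in the 3 other classes. It was detected in 82.8% of precursors and 0.339% of spiny neurons (medians 842 and 2095 UMIs). Bcas1, which marks cells about to form myelin, was at 1702 ± 325 CPM, above the 1149 CPM of mature oligodendrocytes in 37 of 39 animals. Itpr2, a calcium channel of early oligodendrocytes, was at 1083 ± 201 CPM. Bmp4 was at 89.8 ± 30.2 CPM and 6.50 CPM in mature oligodendrocytes. Enpp6, known from newly formed oligodendrocytes, went the other way, with 13 UMIs in precursors (3.95 CPM over all) against 229 CPM in mature oligodendrocytes. Myrf, the factor that switches on myelin genes, was at 77.8 ± 35.9 CPM against 1610 CPM. Of the 19 early differentiation genes used, 7 had their highest mean in precursors and 8 exceeded mature oligodendrocytes.

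Of 17 myelin genes used, none had its highest mean in precursors and Mog, by the rule, and Prr5l had no UMI. Mbp, which encodes myelin basic protein, was at 80.1 ± 42.5 CPM against 10820 CPM in mature oligodendrocytes, and below astrocytes (127 CPM) in most animals. Mag and Opalin were at 10.2 and 4.79 CPM. Ugt8a and Fa2h, enzymes of myelin lipids, were at 434 ± 109 and 294 ± 78.1 CPM, against 2616 and 1097 CPM in mature oligodendrocytes.

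The share of precursors with a UMI of Gpr17, Enpp6 or Bmp4 depends on depth. It was 83.9% without thinning, against 13.9% of mature oligodendrocytes, 0.441% of astrocytes and 0.408% of spiny neurons, whose median depths were 704, 778.5 and 2095 UMIs. The shares of the 2 oligodendrocyte classes rest on different genes. Gpr17 was detected in 82.8% of precursors and Enpp6 in 0.284%, while mature oligodendrocytes had 1.51% and 12.9%. In precursors the share thus mostly follows Gpr17. The main value used the precursors of at least 1000 UMIs, each thinned to 1000, which left 22 animals with at least 20 such nuclei. In females its mean and SD were 82.8% ± 6.65 over 6 mates and 87.7% ± 2.43 over 5 peers. In males they were 81.0% ± 13.8 over 6 mates and 88.7% ± 4.91 over 5 peers. Mates minus peers was -6.27 points (two-sided permutation test, adjusted p = 0.657), with mates between 65.4 and 97.7% and peers between 84.3 and 96.8%, so the groups overlapped. The difference was -2.61 points with doublets left out (19 animals), -1.76 with Bcas1 added to the genes and -1.75 thinned to 500 UMIs. Thinned to 500 UMIs, in 39 animals, the means were 67.8, 71.0, 68.4 and 68.7% in the same order of groups.

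Within the precursors, nuclei rich in Gpr17 had higher levels of several precursor and differentiation genes. In 34 animals with at least 5 nuclei of each kind, nuclei with 3 or more Gpr17 UMIs were set against those with none, Gpr17 itself being left out of the totals. The former are deeper (medians 913 and 749 UMIs), and this split was chosen after values had been seen and is not tested. Sox10 was higher with Gpr17 in 29 animals (572 ± 147 and 378 ± 187 CPM, SD) and Bcas1 in 27 (1956 ± 503 and 1382 ± 572 CPM). The precursor genes C1ql1, Olig1, Matn4 and Ptprz1 were higher in 26, 26, 24 and 24 animals, and Neu4 and Bmp4 in 24 and 21. Lhfpl3 and Olig2 were higher in 18 and 19 animals. The nuclei without Gpr17 also held more of other RNA, with Flt1 at 91.1 against 1.43 CPM, Snap25 at 721 against 548 and Mki67 at 158.5 against 2.87, and 4.80 against 1.70% of them were called doublets. The part of these in the differences was not tested.

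A small set of precursors carried mitotic RNA. At least 2 UMIs of 17 mitotic genes such as Mki67, Top2a and Ect2 were found in 76 precursors (2.16%) of 33 animals. These nuclei were deeper, with a median of 1258.5 UMIs against 835.0, and 14.5% of them were called doublets against 2.35%. Mki67 stood at 43.2 ± 41.3 CPM over precursors of an animal, against 18.2 CPM in astrocytes and 1.12 in mature oligodendrocytes. Of 26 cell cycle genes used, 23 had their highest mean in precursors, most of them at means below 50 CPM.

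Several precursor and differentiation genes were lower in the mitotic precursors. Counts were summed over nuclei, with exact Poisson 95% intervals that cover counting error only. Olig2 was at 640 CPM (502 to 805), against 729 CPM (700 to 760) in the other precursors, with overlapping intervals. Olig1 was at 509 CPM (386 to 657.5) against 923 (890 to 957). Gpr17 was at 596 CPM (463 to 756) against 2804 (2746 to 2863), Bcas1 at 403 (295 to 538) against 1753 (1707 to 1799), and C1ql1 at 640 (502 to 805) against 1665 (1621 to 1711). Neu4 was at 26.3 CPM (5.43 to 76.9) against 212 (196 to 229). Pcna and Mcm6, genes of DNA replication that the split did not use, were at 202 CPM (128 to 303) and 184 CPM (114 to 281.5), against 26.7 (21.4 to 33.0) and 34.9 (28.7 to 42.0). Overlapping intervals were found for Bmp4, Myrf, Tcf7l2, Etv4 and Egfr. The part of depth and of doublets in these differences was not tested.

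**Figure D3:**
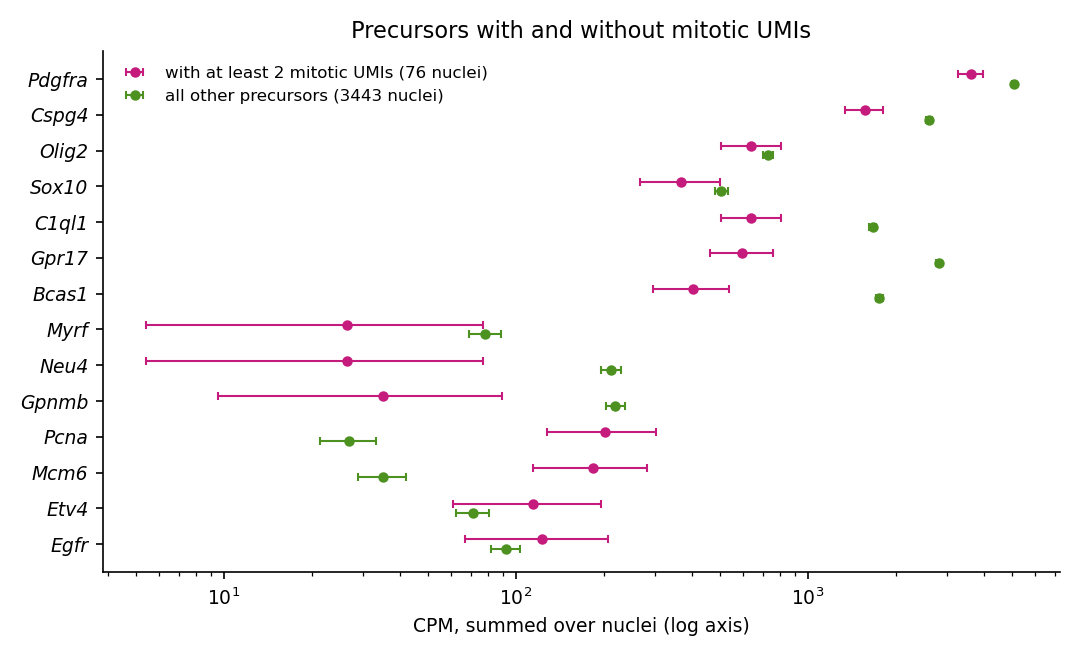
Levels of lineage, differentiation and replication genes in precursors with at least 2 UMIs of mitotic genes and in all other precursors. Points are CPM summed over the nuclei, on a log axis, and bars are exact Poisson 95% intervals. Gpr17 lies at 596 and 2804 CPM, Olig2 at 640 and 729 CPM, and Pcna at 202 and 26.7 CPM.

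The mitotic share had a mean and SD of 1.88% ± 1.64 over 11 mates and 3.30% ± 2.19 over 8 peers in females. In males it was 1.71% ± 1.53 over 10 mates and 3.23% ± 3.16 over 10 peers. Individual animals ranged from 0 to 9.09%, and the groups overlapped. Mates minus peers was -1.47 points, with a two-sided permutation p of 0.0406 that did not pass adjustment over the 3 contrasts (0.122), a test chosen after the values had been seen. Without the nuclei called doublets it was -0.926 points (permutation, adjusted p = 0.452). The animals' median UMIs per precursor had a median of 805.5 in mates and 932.5 in peers, and the part of this depth in the share was not tested.

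RNA of genes that mark other cell types was detected, and whether it came from other cells or from the precursors was not tested. Of 17 neuron markers used, 14 were detected, the 3 others being genes the rule kept at 0, and their summed level was 883 to 5250 CPM over animals, with 11710 CPM as the sum of means in spiny neurons. Snap25, a gene of synaptic vesicle release, was at 609 ± 179 CPM in precursors and 1521 CPM in spiny neurons. In precursors it was above each glial class in 37 of 39 animals. The neuropeptide gene Penk was at 205 ± 171.5 CPM, below the 383 CPM of astrocytes and the 2423 CPM of spiny neurons. Astrocyte markers were detected for 9 of 10 genes, Gja1 being at 0 by the rule, with a sum of 570 to 1852 CPM, against 28790 CPM in astrocytes. Aqp4, a defining marker, was at 9.75 CPM against 1001 CPM.

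Markers of blood vessels came from few nuclei. Endothelial markers (6 of 6 detected) summed to a median of 7.59 CPM and a highest value of 441 CPM, in female mate 4. Markers of mural cells and fibroblasts (11 of 11) had a median of 14.8 CPM and a highest value of 412 CPM, in the same animal. At least 2 UMIs of these vascular genes were found in 16 precursors, 37.5% of them called doublets, and the other 3503 held 3 UMIs of Flt1 and 0 of Vtn. Microglia markers, 10 of 10 detected, summed to 139 to 637 CPM.

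Some genes differed widely between animals. The 5 with the largest biological coefficient of variation were Sst (1.31), Col28a1 (1.30), Fetub (1.03), Ptchd4 (0.963) and Gad1 (0.805), where the median over the 2663 genes tested was 0.165. Sst and Gad1 are interneuron genes. The highest Sst level was 1980 CPM in female peer 1, where the median over animals was 43.6 CPM. That animal had 27 precursors, the fewest of the 39 animals. Gad1 in precursors and astrocytes of the same animals had a Pearson r of 0.398 on the log2(CPM + 5) scale (permutation p = 0.0126, adjusted 0.0316 over 10 relations, 39 animals) and a Spearman rho of 0.335 (permutation, adjusted p = 0.123). Without the 2 animals farthest from the median r was 0.276, and within runs of 10 label numbers 0.0794 to 0.667, so the relation rested on few animals.

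Col28a1, a collagen gene, fell into a low and a high set of animals. In 22 animals it lay between 0 and 165 CPM with a median of 25.5, and in the other 17 between 305.5 and 584 CPM with a median of 377, a gap no animal filled. Both sets held animals of each group. The high set had 5 female mates, 3 female peers, 4 male mates and 5 male peers. Col28a1 was nearly absent from the other classes, with 1 UMI in mature oligodendrocytes, 9 in astrocytes and 109 in spiny neurons (0.954 CPM), against 713 in precursors. A relation to spiny neurons of the same animals could not be read, since its sign differed between the sets. The sign was negative in the low set and over all animals and positive in the high set. The spiny neurons held few UMIs, 81 and 28 in the low and high sets.

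Fetub, which encodes a fetuin, a secreted protease inhibitor, varied from 0 CPM in 3 animals to 2399 CPM in male peer 4. Astrocytes expressed it too, at 1512 CPM on average, while mature oligodendrocytes and spiny neurons were at 11.7 and 9.01 CPM. Animals high in precursors were high in astrocytes. On the log2(CPM + 5) scale, Pearson's r over 39 animals was 0.963 and Spearman's rho 0.900, each with a permutation p of 1e-05, the smallest 100000 resamples can give, and 5e-05 after adjustment over 10 relations. Without the 2 animals farthest from the median r was 0.937. Within runs of 10 label numbers r was 0.925 to 0.974, with 9 or 10 animals in each. In spiny neurons of the same animals r was 0.786 (permutation p = 1e-05, adjusted 5e-05), and 0.702 without the 2 farthest. The classes come from the same library, so RNA shared within a library is part of this comparison and was not tested. Neither pairing (log2 change -0.06 ± 0.40, SE) nor sex (-0.07 ± 0.40) went with Fetub in edgeR's quasi-likelihood test (Benjamini-Hochberg adjusted p = 0.997 and 0.999).

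**Figure D4:**
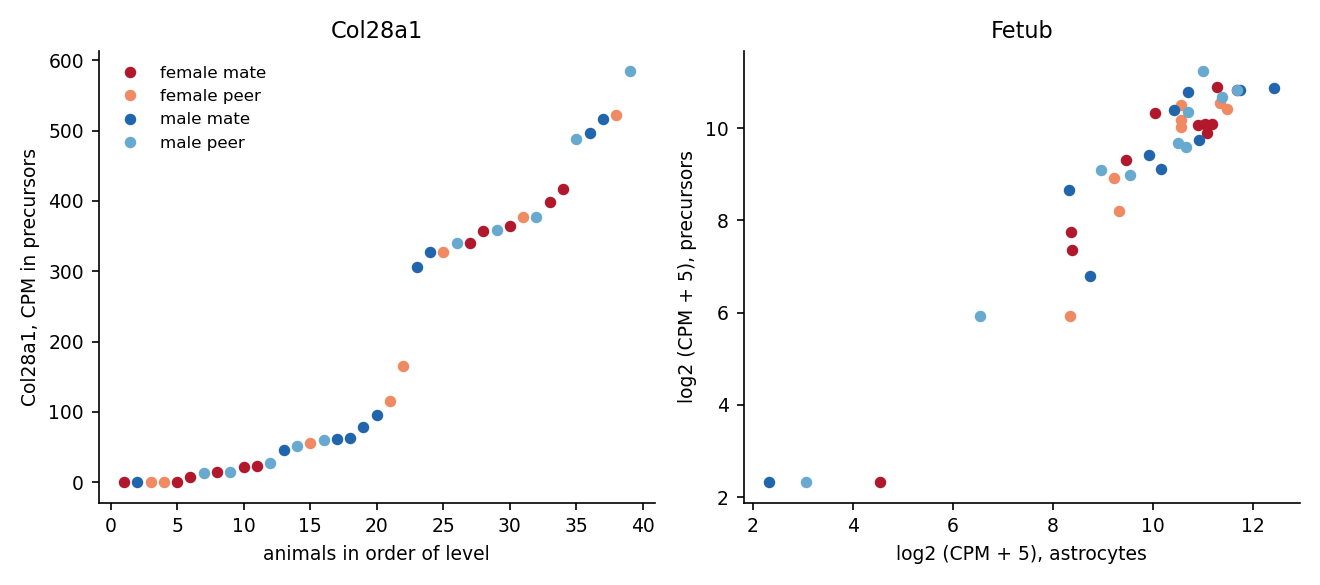
Col28a1 in precursors of 39 animals in order of level (left, CPM), and Fetub in precursors against astrocytes of the same animals (right, log2 of CPM plus 5), coloured by group. Col28a1 has no animal between 165 and 305.5 CPM, and 3 animals have no Fetub UMI in precursors.

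Whether pairing goes with gene expression in precursors was tested on counts summed per animal with edgeR's quasi-likelihood test, over 2663 genes in 39 animals. No gene passed a Benjamini-Hochberg adjusted p of 0.05 for mates against peers (0% of genes called), where 112 genes had an unadjusted p under 0.05. DESeq2 called 0 genes too. The interaction of pairing and sex, and pairing within females and within males, likewise gave 0 calls (0% each), with 99, 122 and 86 genes at an unadjusted p under 0.05, and DESeq2 gave 0 in each. With the stricter gate, described below, 1 gene was called for pairing (Caskin1, log2 change 0.79, edgeR adjusted p = 0.0278).

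The gene with the lowest p for pairing was Pip5k1c, a kinase that makes the membrane lipid PIP2. Its lowest, median and highest levels were 109, 141.5 and 174 CPM in female mates and 57.9, 92.2 and 167 CPM in female peers. In males they were 103, 147 and 187 CPM in mates and 30.7, 74.8 and 165 CPM in peers. All 21 mates lay above the mean of the peers, and 4 of 18 peers above that of the mates. The log2 change was 0.66 ± 0.16 (SE), with an adjusted p of 0.211 in edgeR's test. Armc10 had a log2 change of -0.62 ± 0.17 (SE) and an edgeR adjusted p of 0.448.

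Gatm, an enzyme of creatine synthesis, was among the 3 genes with the lowest p in females and for the interaction. Its lowest, median and highest levels were 186.5, 382 and 640 CPM in female mates and 375, 634 and 773 CPM in female peers. In males they were 212, 538 and 770.5 CPM in mates and 306, 469 and 661 CPM in peers. The groups overlapped in both sexes. The log2 change of mates against peers was -0.63 ± 0.17 (SE) in females (edgeR adjusted p = 0.696), and its interaction with sex -0.75 ± 0.24 (adjusted p = 0.988). In males, Pip5k1c had the lowest p again, with a log2 change of 0.86 ± 0.23 (SE) and an adjusted p of 0.725.

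Sex went with 3 genes. Of 2663 tested, 0.113% were called between females and males, and the 3 were also the ones DESeq2 called. Unadjusted, 103 genes had a p under 0.05. Kdm5c and Kdm6a, histone demethylases whose X-linked copies are known to escape X inactivation in mice and humans, were higher in females. Tenm1, a teneurin that acts in contacts between cells and is X-linked in mammals, was lower. Endothelial markers summed to 0 to 441 CPM in precursors of females and 0 to 30.7 CPM in those of males, mural and fibroblast markers to at most 412 and 103 CPM, and their part in these results was not tested.

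Kdm5c had lowest, median and highest levels of 166, 288 and 383 CPM in female mates and 223, 258.5 and 388 CPM in female peers. In males they were 104, 183 and 340.3 CPM in mates and 111, 182 and 204 CPM in peers. The ranges of the sexes overlapped, female mate 4 being the lowest female and male mate 3 the highest male. The log2 change was 0.65 ± 0.12 (SE, edgeR adjusted p = 0.00325), and 18 of 19 females lay above the mean of the males. The call was lost with at least 2 of the 4 markers as the gate (log2 change 0.50, adjusted p = 0.117).

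Kdm6a had a mean and SD of 315 ± 50.5 CPM over 19 females and 224 ± 57.3 CPM over 20 males. Its lowest female value was 236.5 CPM and its highest male value 342 CPM. The log2 change was 0.53 ± 0.11 (SE, edgeR adjusted p = 0.00904), with 19 of 19 females above the mean of the males. Without the filter on low counts its adjusted p was 0.0667.

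Tenm1 ran from 152.6 to 326 CPM in females and from 183 to 488 CPM in males, with medians of 237 and 349 CPM. Their means and SDs were 246.5 ± 57.4 and 345 ± 72.9 CPM over 19 and 20 animals, a log2 change of -0.50 ± 0.11 (SE, edgeR adjusted p = 0.0387), and 19 of 20 males lay above the mean of the females. The call was lost with the stricter gate, which also kept Gad1, Gad2, Csf1r, Flt1, Pdgfrb, Aqp4 and Mag at 0 (adjusted p = 0.109), with at least 2 of the 4 markers as the gate (0.227) and without the filter on low counts (0.109), while the log2 change stayed between -0.53 and -0.41.

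The sex difference of Tenm1 was found in precursors and differed from that in the 2 glial classes they were compared with. On the log2(CPM + 5) scale females minus males was -0.51 in precursors, 0.49 in mature oligodendrocytes, where Tenm1 stood at 27.4 and 20.4 CPM in the sexes, and 0.01 in astrocytes, at 38.8 and 38.7 CPM. The difference of the differences was -0.997 (permutation of sex within pairing type, adjusted p = 0.0139 over 6 tests) and -0.51 (permutation, adjusted p = 0.0154), in 39 animals. The 3 genes were taken up because they were called in precursors, so these tests are not independent of that choice. In mature oligodendrocytes 3 of 39 animals had no Tenm1 UMI. Kdm6a had a smaller sex difference in precursors, 0.53, than in mature oligodendrocytes, 0.83 (difference -0.30, permutation adjusted p = 0.0154), where females stood at 702 ± 134 and males at 400.0 ± 104 CPM. Against astrocytes, at 0.66, the difference was -0.13 (permutation, adjusted p = 0.276). For Kdm5c the sex difference was 0.66 in precursors, 0.55 in mature oligodendrocytes and 0.70 in astrocytes, with adjusted p of 0.567 and 0.726 for the differences (permutation).

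**Figure D5:**
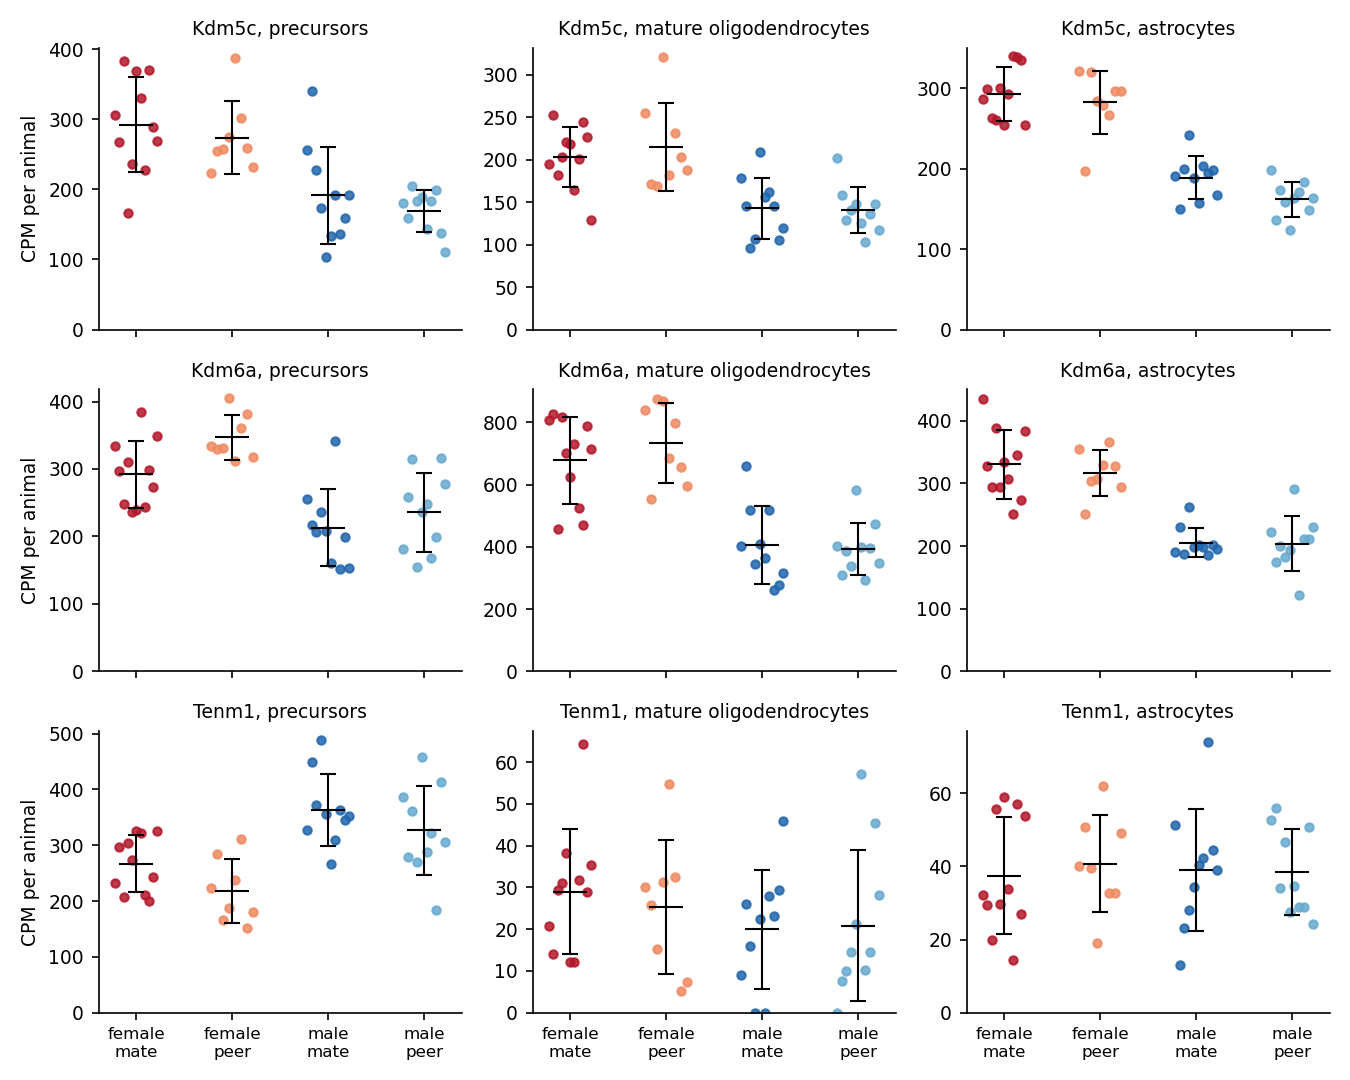
Levels of Kdm5c, Kdm6a and Tenm1 (CPM per animal) in precursors, mature oligodendrocytes and astrocytes, by group. Points are animals, the bar is the mean and the whiskers 1 SD; each panel has its own axis from 0. Tenm1 means differ between the sexes in precursors, 246.5 and 345 CPM, and are 38.8 and 38.7 CPM in astrocytes.

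None of the genes in the lists passed the tests. The lists include markers of other cells, and 9 neuron, 3 astrocyte and 1 microglia marker were among the genes tested. Of 103 listed genes that passed the filter, among 305 used, 0 were called in any of the 5 comparisons, and 4, 5 and 6 of them had an unadjusted p under 0.05 for pairing, sex and their interaction, where all genes gave 112, 103 and 99 of 2663. In females pairing gave 10 of the 103 (122 over all genes) and in males 1 (86 over all). Neuron markers were among these, with Sst, Gad1 and Ppp1r1b for the interaction and Sst, Penk and Ppp1r1b for pairing in females. Gpr17 had log2 differences of -0.05 ± 0.10 (SE) for pairing and 0.10 ± 0.10 for sex, and its level in females was 2755 ± 476 CPM in mates and 2852 ± 776 CPM in peers, in males 2600.0 ± 788 and 2639 ± 515 CPM. C1ql1 was at 1745 ± 287, 1703 ± 301, 1506 ± 283.5 and 1532 ± 400 CPM in the same order. Among the genes at an unadjusted p under 0.05 were Tnr (pairing, 0.32), Olig1 (pairing, -0.20), Sox6 (sex, 0.38), Penk (pairing, 0.80) and Thra, a thyroid hormone receptor (sex, -0.32), with edgeR adjusted p of 0.997, 0.997, 0.999, 0.997 and 0.775. Listed genes below the filter, among them Esr1, Crhr1, Bmp4, Mbp and all 26 cell cycle genes, were not tested.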

How the data were processed

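Raw UMI counts for 19130 genes (3807 by identifier only) in each nucleus were deposited by the authors, made with Cell Ranger 3.1.0 per the submitters' processing notes. Build, annotation and barcode calling are not given in the sources used here. Members and gene lists (17 lists, 332 genes, of which 27 were not used here) were chosen with earlier results of these data known.

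Doublets were scored against simulated doublets, and the highest scores were called, 0.8% per 1000 nuclei left after the UMI and mitochondrial limits. Counts of precursors were summed per animal with at least 20 of them and fitted over all genes in edgeR 4.0.16 (R 4.3.3), with TMM factors, its filter on low counts and 1 mean per group. Calls were made at an adjusted p below 0.05 (Benjamini-Hochberg). DESeq2 1.42.0 was an alternative. SEs are the log2 change over the square root of F. The script was tested on simulated data. Shares were permuted within the other factor, 100000 times. The comparison classes held no Pdgfra UMI and none of the 5 excluded genes save their own. Named are the markers and gate genes, up to 6 members per list with the highest level and any at 0 or called, the 10 lowest p among calls or else 3 per comparison, the 25 leading genes of at least 50 CPM and the 5 most variable. Other genes were chosen after their values were seen. Some genes that this rule covers are not reported here.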

Additional observations from a re-analysis of the deposited data

Results flagged for a closer look

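The sex differences that differed between classes were those of Tenm1, by -0.997 on the log2 scale against mature oligodendrocytes and by -0.51 against astrocytes, and of Kdm6a, by -0.30 against mature oligodendrocytes, each by a permutation test of the difference over 39 animals. Both genes were taken up because they were called in precursors, so the precursor side of each difference was selected and these p-values are not independent of that choice. Tenm1 was at 27.4 and 20.4 CPM in mature oligodendrocytes of the sexes and at 0 in 3 of 39 animals there.

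A sample far from the others of its group was found in 6 of 100 groups and measures looked at, and chance gives about 1 in 20. Groups of 11 animals were not looked at. This left out female mates throughout, and male mates for the precursor share and the ratio to mature oligodendrocytes. Crhr1 in precursors was at 93.0 CPM in male mate 10, where the next male mate had 53.4, and at 153 CPM in male peer 10, where the next male peer had 76.7. Penk was at 420.0 CPM in female peer 5, with 105 in the next female peer. The neuropeptide gene Sst was at 1319 CPM in male mate 6 and 472 CPM in male peer 3, with 340.3 and 58.0 in the next animals. ENSMOCG00000006893 was at 310 CPM in male mate 4, with 185 in the next.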

How the results depend on the processing

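None of the 51 recomputed values of the 9 share tests passed adjustment (lowest adjusted p 0.428), and 10 changed sign. The pairing difference in the precursor share became 0.0663 points with all nuclei thinned to 500 UMIs, 0.0595 with at least 2 of 4 markers, 0.196 among glial nuclei and 0.0507 without male mate 2. Among nuclei of at least 1000 UMIs, thinned to 1000, it kept its sign and was larger, at -0.377 points (permutation, adjusted p = 0.428), against -0.0318 in the main values. With nuclei thinned to 1000 UMIs, its interaction with sex became -0.517 points, and the pairing and interaction differences in the log2 ratio to mature oligodendrocytes -0.19 and -0.65. The sex difference in that ratio was -0.0350 without male mate 2. For the share with a differentiation UMI, sex gave -0.971 points without doublets and the interaction -2.81 thinned to 500 UMIs. For the mitotic share, sex gave -0.0770 without doublets. Causes of these changes were not tested. Thinning to 500 UMIs and the mitotic share were chosen after seeing the data.

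The stricter gate called 1 gene for pairing (Caskin1, log2 change 0.79, adjusted p = 0.0278, edgeR) and 2 for sex. At least 2 of 4 markers left 1 for sex (Kdm6a). Without the filter on low counts, 1 was called in females and 2 in males (Ecel1 and Ngfr, -3.45 and -3.69), and for sex 4, namely Kdm5c, Vtn (3.00), ENSMOCG00000020797 (3.26) and ENSMOCG00000019393 (0.54). Mural and fibroblast markers, Vtn among them, summed to at most 412 CPM in female and 103 CPM in male precursors, and all 32 UMIs of Vtn lay in the 16 nuclei with vascular markers. Kdm5c lost its call with at least 2 of 4 markers (adjusted p = 0.117) and Kdm6a without the filter (0.0667). The gene test left out male mate 2 from the start, so that leaving it out or asking for 10 nuclei changed nothing. Adjacent label numbers hold a female and a male mate or a pair of peers, but are not named as partners. Deviations of adjacent mates from their group means had correlations of -0.04 to 0.21 over genes (median 0.044), above 0.1 in 3 of 10 mate pairs. Animals of different groups that are not adjacent had -0.22 to 0.34 (median -0.0019), above 0.1 in 49 of 558 pairs. Adjacent peers had -0.12 to 0.03 (median -0.023), above 0.1 in 0 of 9 pairs. Both peers of a pair enter the same group mean, which lowers their correlation, so they cannot be set against mates. In the 20 animals of those mate pairs, sex called 0 genes with the adjacent number as a replicate block and 0 without it (84 and 83 at an unadjusted p under 0.05, edgeR), where Kdm5c had log2 changes of 0.62 and 0.61 (adjusted p = 0.406 and 0.9999), an alternative chosen after seeing the data and with fewer animals. Median depth of 842 UMIs limits genes at low levels. The 2663 genes tested all had a mean of at least 50 CPM. The filter also left out some genes above that level, Bmp4 and Mbp among them.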
